A study of Mus musculus with 8 samples.

Results

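The neurotrophins and their receptors were followed here through 6 genes in whole mouse brain: the ligands Bdnf and Ntf3, the Trk receptors Ntrk2 and Ntrk3, the p75 receptor Ngfr, and sortilin, Sort1. They were chosen by name, and all 6 were found among the 34299 genes of the count table. The samples were 3 wild-type (WT) fetal brains and 3 Cav1 knockout (KO) fetal brains at gestation day 15, and 2 Cav1 KO brains at week 70. Cav1 encodes caveolin 1, the main coat protein of the membrane pits called caveolae. The study set out to learn what loss of caveolin 1 does to the fetal brain, and the older brains add an age axis within the KO genotype. Strain, the knockout allele, litter and sex are not given in the sources used here. The WT brains of week 70 that the study also drew on come from another study and were not analysed here, so age and genotype cannot be told apart when week 70 KO is set against day 15 WT.

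Neurotrophins are secreted growth factors that keep neurons alive, guide their branching and adjust synapses. They are made as precursors: the cut, mature forms act mainly through Trk receptor tyrosine kinases, whereas the uncut forms bind p75 together with a sortilin-type receptor and can trigger cell death. BDNF is the ligand of TrkB, the product of Ntrk2, and neurotrophin 3, the product of Ntf3, is the ligand of TrkC, the product of Ntrk3. Ntrk2 and Ntrk3 each also give receptor forms that lack the kinase, and the truncated TrkB is abundant in astrocytes. Counts per gene do not separate these forms.

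Total counts ran from 19414747 to 20833397 in the WT day 15 libraries, from 14110031 to 15245283 in the KO day 15 libraries, and were 20203233 and 18924304 at week 70. Counts of Cav1 itself were 367, 218 and 329 across WT, 0, 3 and 1 across the day 15 KO libraries, and 1 and 5 at week 70. All 6 neuronal markers were detected in every group, with a summed level of 3670 to 4080 normalised CPM (read counts scaled for library size) in WT, 2930 to 2980 in day 15 KO and 7820 to 8200 at week 70. These markers did not move together. Mean Tubb3 was 1503 CPM in WT, 636.5 in day 15 KO and 427.4 at week 70, while mean Snap25 was 117.8, 158.5 and 3866 CPM. A few libraries stood apart in ways that touch the results. WT replicate 1 stood apart in connective-tissue genes, with 49885 counts of the collagen gene Col1a1 against 1408 and 2623 in the other WT libraries. The week 70 pair differed in sex-linked transcripts: replicate 1 had 7969 counts of Xist and 0 of 4 Y-linked genes together, and replicate 2 had 4 and 2219, while every fetal library held at least 54531 counts of Xist.

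At day 15, the KO brains had more transcript of both ligands and less of 3 of the 4 receptors than WT. Bdnf was 1.79-fold and Ntf3 1.99-fold higher, while Ntrk2 was 2.34-fold, Ngfr 3.52-fold and Sort1 1.9-fold lower. Only Ntrk3 was not called. A call here means an adjusted p (Benjamini-Hochberg over all genes tested) under 0.05 in edgeR's quasi-likelihood test. Calls were common: of 19147 genes tested, 30.1% were called higher in KO and 32.5% lower, so 2 higher and 3 lower among 6 genes must be read against that background. The 3 WT and 3 KO libraries did not overlap for 5 of the 6 genes, as was the case for 68.4% of all genes tested. The median log2 fold change was -0.52 over the 6 genes and 0.03 over all genes. That split of calls depended on scaling: 48.1% of all called genes were higher in KO with the main scaling and 60.8% with upper-quartile scaling, which moved the median of all genes to 0.20.

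Fold changes in this table also varied with transcript length and base composition, so each is given below with a fit that removes a smooth trend on both, using the longest transcript of each gene. With that correction the median over the 6 genes at day 15 was -0.20. In whole tissue, fewer cells of a type and less RNA per cell cannot be told apart.

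**Figure D1:**
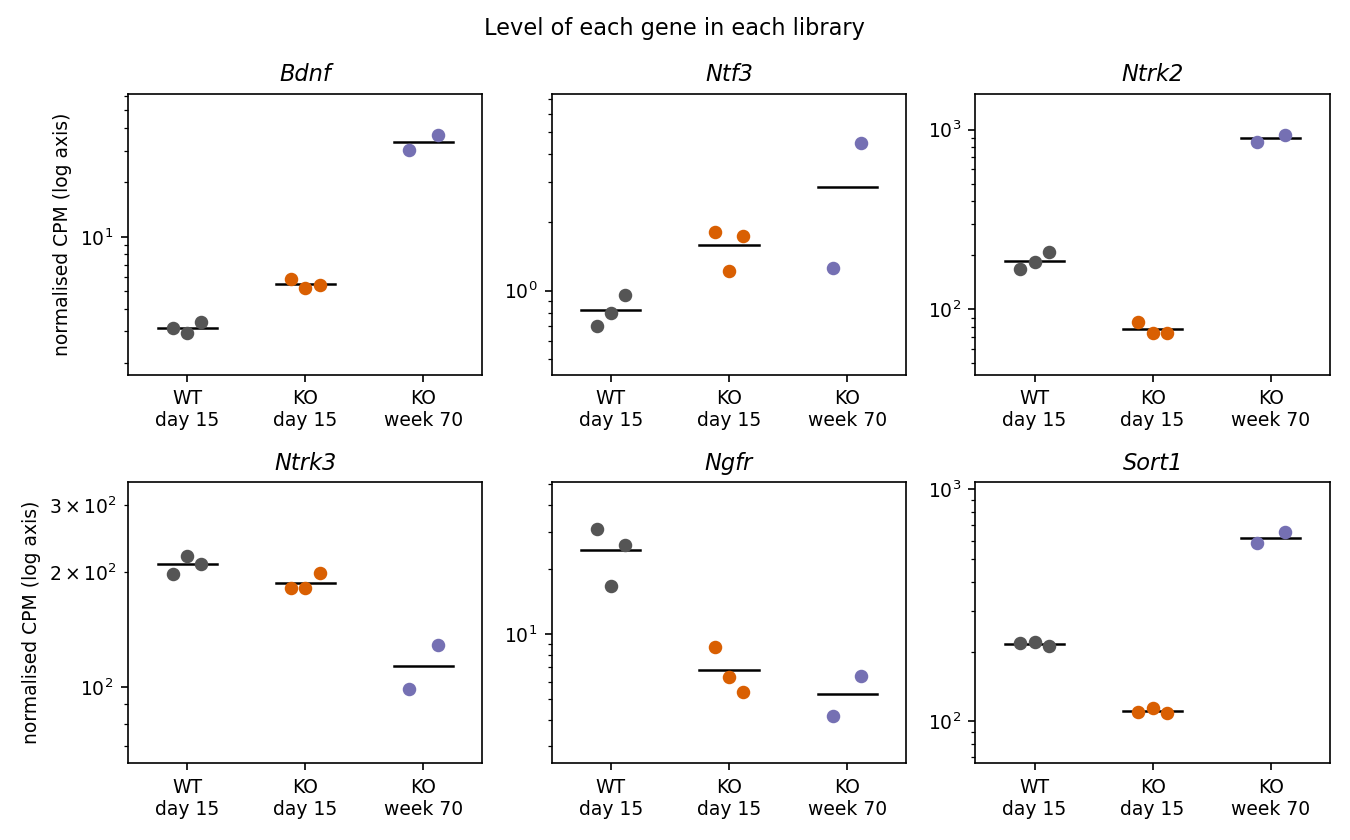
Normalised CPM (log axis) of the 6 genes in each of the 8 libraries, by group, with a horizontal line at the group mean. WT and KO at day 15 overlap only for Ntrk3, and week 70 reaches 30.3 to 36.5 CPM for Bdnf and 856 to 931 CPM for Ntrk2.

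Bdnf encodes brain-derived neurotrophic factor, the ligand on which activity-dependent synaptic change in the cortex and hippocampus largely relies. The gene (ENSMUSG00000048482) lies on the plus strand at chr2:109674700-109727007 in GRCm38, with 11 annotated transcripts in GENCODE M21. Bdnf is transcribed from several alternative start sites, each with its own 5′ exon spliced to a shared coding exon, and counts per gene add them all. RefSeq places 7 start sites in the promoter table, and cyclic AMP signalling through CREB is a known regulator of the gene. One window is shown because it alone among the 7 Bdnf windows holds the core of the cyclic AMP response element, TGACGT, searched on both strands. It covers the 250 bases before the start site, at chr2:109692186-109692435 on the plus strand of GRCm38.p6, with the reverse-strand core ACGTCA in capitals, its first base at -36 from the start site.
Bdnf upstream window: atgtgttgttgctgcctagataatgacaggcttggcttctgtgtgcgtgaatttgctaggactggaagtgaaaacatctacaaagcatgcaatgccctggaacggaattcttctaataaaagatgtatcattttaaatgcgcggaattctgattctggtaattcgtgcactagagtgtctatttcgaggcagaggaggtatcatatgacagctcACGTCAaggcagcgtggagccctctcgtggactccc
The core was present in 7.51% of the 32851 windows in the promoter table, each 250 bases before to 50 after a start. The full palindrome TGACGTCA, which contains the core, was present in 1.79% of all windows and in 0 of the 7 Bdnf windows. These matches are letters in a window, and the counts do not show which start site was used. The other members with windows in that table were Ntf3 with 2, Ngfr with 1 and Ntrk2 with 1, and none of these 4 held the core.

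Bdnf was scarce in the fetal brains. Counts were 67, 59 and 67 for WT and 96, 94 and 94 for day 15 KO, which is 3.13, 2.95 and 3.37 CPM against 5.81, 5.22 and 5.44 CPM. Every KO library was above every WT library, although the KO libraries were shallower. Its log2 fold change was 0.84 (SE 0.16, edgeR adjusted p = 0.0011), and 12.7% of all genes had a larger rise. With the length and GC correction it was 0.48 (adjusted p = 0.034).

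Ntf3 encodes neurotrophin 3, which in development supports proprioceptive sensory neurons and acts on progenitors before Bdnf is abundant. The gene (ENSMUSG00000049107) lies on the minus strand at chr6:126101412-126166910. It was the least abundant member, at 15, 16 and 19 counts for WT and 30, 22 and 30 for day 15 KO. These correspond to 0.70, 0.80 and 0.95 CPM in WT and to 1.82, 1.22 and 1.74 CPM in KO. The groups did not overlap, with KO replicate 2 nearest to WT. This gave a log2 fold change of 0.99 (SE 0.29, edgeR adjusted p = 0.012), which rests on few counts: the adjusted p was 0.060 with the length and GC correction (log2 fold change 0.71) and 0.051 without KO replicate 1 (0.88). DESeq2 gave an adjusted p of 0.0501, and an edgeR fit of all 8 libraries gave 0.097.

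The ligand ratio within a library, Bdnf to Ntf3 per kilobase of exon, was 1.23, 1.02 and 0.972 in WT and 0.882, 1.18 and 0.864 in day 15 KO. The groups overlapped, and the mean log2 ratio differed by -0.15 (two-sided exact permutation p = 0.5). At day 15 both ligands were thus near parity per kilobase of summed exons in both genotypes. Per kilobase of the longest transcript, mean Bdnf and Ntf3 were 0.738 and 0.552 CPM in WT and 1.29 and 1.07 CPM in KO.

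Ntrk2 encodes TrkB, the high-affinity receptor of BDNF. The gene (ENSMUSG00000055254) lies on the plus strand at chr13:58806569-59133970, with 10 annotated transcripts whose longest has 8744 bases and whose median has 2884. Its counts were 3597, 3675 and 4144 in WT and 1400, 1332 and 1273 in day 15 KO. In CPM these were 168, 183 and 208 against 84.8, 74.0 and 73.7, so the highest KO library lay well below the lowest WT library. The fall had a log2 fold change of -1.23 (SE 0.088, edgeR adjusted p = 8.1e-07), and 7.16% of all genes fell by more. The length and GC correction gave -0.66 on the longest transcript (adjusted p = 0.00014) and -1.02 on the median transcript, an alternative added after seeing the data.

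Markers of astrocytes and of neural progenitors, which are known to transcribe Ntrk2, also differed between the genotypes. The summed level of 6 astrocyte markers was 376 to 429 CPM in WT and 177 to 183 CPM in day 15 KO, with 4 called lower and 1 higher. The sum does not describe each marker. Mean Aqp4 was 2.42 CPM in WT and 3.78 CPM in KO. Mean Gfap was 0.91 and 1.27 CPM, with overlapping groups. The summed level of 5 neural progenitor markers was 954 to 1060 CPM in WT and 355 to 385 CPM in KO, with all 5 called lower. No marker of either list was at 0 across a group. Their part in the Ntrk2 result was not tested.

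Ntrk3 encodes TrkC, the receptor of neurotrophin 3. The gene (ENSMUSG00000059146) lies on the minus strand at chr7:78175959-78738012 and has 20 annotated transcripts, of very unequal length: the longest has 19703 bases and the median 990.5. Its counts were 4227, 4420 and 4179 in WT and 2997, 3270 and 3426 in day 15 KO, or 198, 221 and 210 CPM against 182, 182 and 198 CPM. KO replicate 3 lay above WT replicate 1, so the groups overlapped. The log2 fold change was -0.12 (SE 0.070, edgeR adjusted p = 0.15). Its sign and call were not stable: 0.05 with upper-quartile scaling, -0.15 with the length and GC correction (adjusted p = 0.040), and -0.18 without WT replicate 1 (adjusted p = 0.044).

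The balance of the Trk receptors was also compared within libraries. The ratio of Ntrk2 to Ntrk3 per kilobase was 1.33, 1.30 and 1.55 in WT and 0.731, 0.637 and 0.581 in day 15 KO. All WT libraries had more Ntrk2 than Ntrk3 and all KO libraries had less, on that scale. Which receptor was the more abundant depended on the divisor. The ratio of counts was 0.851, 0.831 and 0.992 in WT and 0.467, 0.407 and 0.372 in KO, so Ntrk2 had fewer counts in both genotypes. The mean log2 ratio differed by -1.10 (two-sided exact permutation p = 0.1, the smallest that 3 against 3 allows). Adjusted over the 6 ratio tests the p was 0.24. Ratios divide by the summed exon length of all transcripts and carry no correction for the trend on length and GC.

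**Figure D2:**
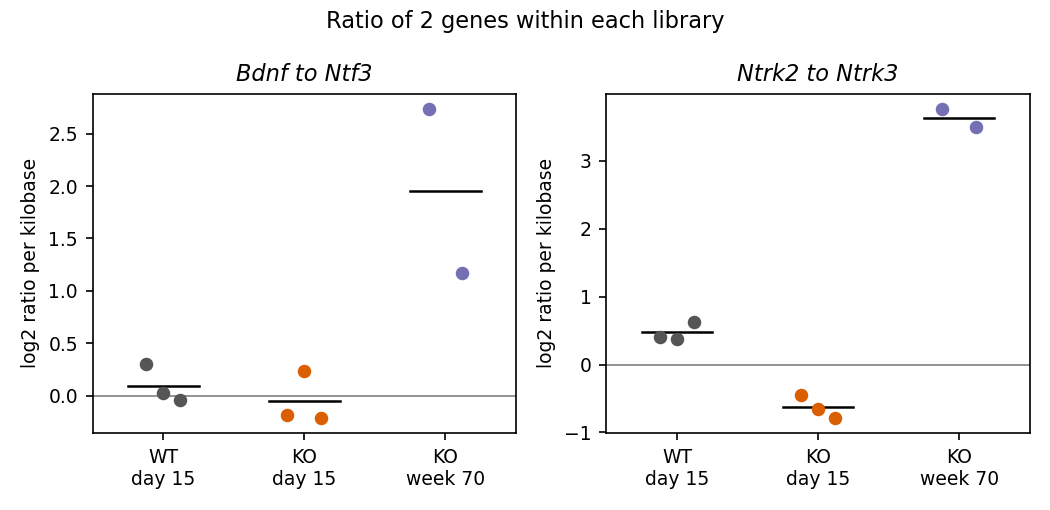
Within-library log2 ratios, per kilobase of exon, of Ntrk2 to Ntrk3 and of Bdnf to Ntf3 in each of the 8 libraries. The receptor ratio separates the 3 groups, with means of 0.47 in WT, -0.63 in day 15 KO and 3.63 in week 70 KO, while the ligand ratio overlaps at day 15.

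Ngfr encodes p75, a death-domain receptor that binds every neurotrophin and, with sortilin, their precursors. In embryonic brain it marks, among others, neural crest derivatives, meningeal cells and the forming cholinergic neurons of the basal forebrain. The gene (ENSMUSG00000000120) lies on the minus strand at chr11:95568818-95587735 and has 1 annotated transcript of 3446 bases with 58.6% GC. Counts were 659, 337 and 518 in WT and 143, 114 and 93 in day 15 KO, or 30.8, 16.8 and 26.0 CPM against 8.66, 6.33 and 5.39 CPM. WT replicate 1 was the highest library, and even the lowest WT library lay above all KO libraries. Ngfr had the largest change of the 6 genes at day 15, a log2 fold change of -1.81 (SE 0.22, edgeR adjusted p = 4.4e-05), and 2.2% of all genes fell by more. Without WT replicate 1 it was -1.64. The length and GC correction gave -1.11 (adjusted p = 0.00073).

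Markers of other cell types were set beside Ngfr, and some of these lists differed between the genotypes. The summed level of 6 meningeal fibroblast markers was 290 to 4400 CPM in WT, the top value being replicate 1, and 56.1 to 124 CPM in KO, with 4 called lower. That sum does not describe each marker. Mean Dcn was 25.2 CPM in WT and 27.4 CPM in KO, and mean Lum was 20.7 and 13.5 CPM, both with overlapping groups. The summed level of 5 endothelial markers was 160 to 224 CPM in WT and 45.3 to 58.0 CPM in KO, with all 5 called lower. The 5 cholinergic neuron markers summed to 21.7 to 32.7 CPM in WT and 21.3 to 22.4 CPM in KO, with 1 called higher and 2 lower. The 6 markers of sensory ganglion neurons summed to 89.1 to 111 CPM in WT and 57.3 to 59.4 CPM in KO, with 2 called lower. Mean Pou4f1 was 41.3 CPM in WT and 9.46 CPM in KO, whereas mean Isl1 was 39.5 and 41.3 CPM, with overlapping groups. The 6 markers of peripheral glia summed to 31.1 to 48.8 CPM in WT and 33.4 to 38.1 CPM in KO, with 1 called higher and 3 lower. The cholinergic and peripheral glia sums thus overlapped between the genotypes. No list had a marker at 0 across a group, and their part in the Ngfr result was not tested.

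Sort1 encodes sortilin, a sorting receptor of the Golgi that directs BDNF to the regulated secretory pathway and, at the cell surface, joins p75 to bind neurotrophin precursors. The gene (ENSMUSG00000068747) lies on the plus strand at chr3:108284082-108361511. Counts were 4668, 4406 and 4198 for WT and 1808, 2066 and 1874 for day 15 KO. In CPM these were 218, 220 and 211 against 110, 115 and 109, the tightest groups of the 6 genes relative to their means. Sort1 gave a log2 fold change of -0.92 (SE 0.056, edgeR adjusted p = 2.5e-07), while 12.7% of all genes fell by more. The length and GC correction brought it to -0.24 (adjusted p = 0.0038), still called lower.

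**Figure D3:**
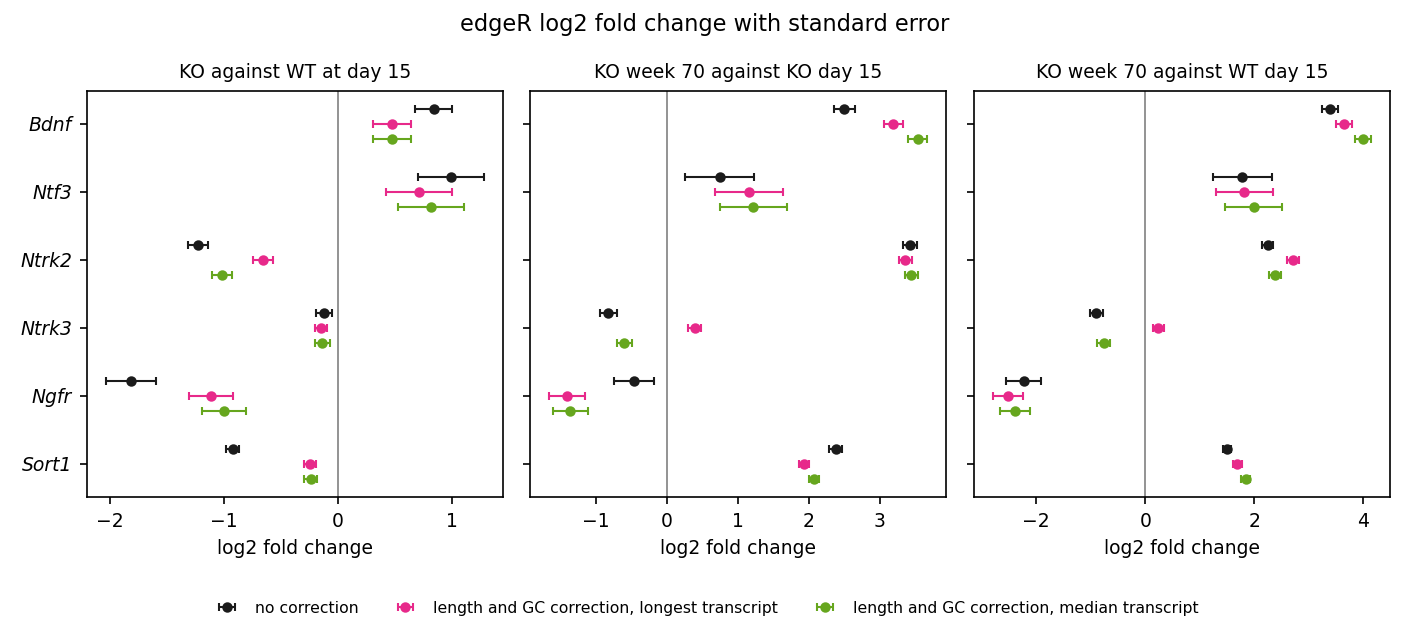
edgeR log2 fold changes (with standard error) of the 6 genes in the 3 comparisons, without correction and with the length and GC correction on the longest or the median transcript. At day 15 the corrected values lie closer to 0 for Bdnf, Ntf3, Ntrk2, Ngfr and Sort1, and the week 70 change of Ntrk3 lies above 0 only with the longest transcript.

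Between day 15 and week 70 in KO brains, Bdnf, TrkB and sortilin transcripts rose strongly, while TrkC transcript fell on the main scale but not with 1 of the 2 length and GC corrections. Ntrk2 was 10.8-fold, Bdnf 5.66-fold and Sort1 5.2-fold higher at week 70, and Ntrk3 was 1.77-fold lower. Ntf3 and Ngfr were not called, although each was called under some alternatives given below. Background was again high: 37.6% of 20000 genes tested were called higher at week 70 and 44.4% lower, and 87.9% had groups that did not overlap, against 4 of the 6 members. The median log2 fold change was 1.56 over the 6 genes and -0.19 over all genes, which upper-quartile scaling moved to -0.44. The makeup of the tissue changed with it: 6 oligodendrocyte markers summed to 77.7 to 82.9 CPM in day 15 KO and to 13300 to 13400 CPM at week 70, all 6 called higher, and their part in the members' changes was not tested. The comparison holds 3 fetal and 2 old brains, and the older pair differed in sex-linked transcripts as given above.

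Ntrk2 reached 12984 and 13511 counts at week 70, or 856 and 931 CPM. The fetal KO libraries lay at 73.7 to 84.8 CPM, so the ranges were far apart. This rise had a log2 fold change of 3.43 (SE 0.099, edgeR adjusted p = 4.1e-10), and 5.1% of all genes rose by more. It was 3.36 with the length and GC correction. The 6 astrocyte markers rose as well, from 177 to 183 CPM summed in day 15 KO to 7110 to 7660 CPM at week 70, all 6 called higher, and their part in the Ntrk2 result was not tested.

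Bdnf reached 459 and 529 counts at week 70, or 30.3 and 36.5 CPM, each more than the highest fetal library. Bdnf rose by a log2 fold change of 2.50 (SE 0.15, edgeR adjusted p = 5.9e-08), and 9.74% of all genes rose by more. The length and GC correction raised it to 3.19. Sort1 reached 8857 and 9494 counts, or 584 and 654 CPM, again above every fetal library. Its log2 fold change was 2.38 (SE 0.090, adjusted p = 2.4e-09), with 10.6% of all genes rising by more, and it was 1.93 after correction.

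Ntrk3 went the other way, to 1493 and 1864 counts, or 98.4 and 129 CPM, below all 3 fetal KO libraries. Its log2 fold change was -0.82 (SE 0.12, edgeR adjusted p = 8.5e-05). This direction turned with the transcript used for the correction: 0.39 with the longest transcript (adjusted p = 0.0021) and -0.60 with the median transcript (adjusted p = 0.00047). No single direction for Ntrk3 with age therefore held on every scale tried.

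Ntf3 split the week 70 pair, with 19 counts in replicate 1 and 65 in replicate 2, or 1.25 and 4.48 CPM. The first lay within the fetal KO range of 1.22 to 1.82 CPM and the second above it. The log2 fold change was 0.74 (SE 0.49, edgeR adjusted p = 0.18). With the length and GC correction it was 1.16 on the longest transcript (adjusted p = 0.050) and 1.22 on the median transcript, where it was called higher (adjusted p = 0.038). It was -0.44 without week 70 replicate 2 and 1.40 without week 70 replicate 1, so a single library sets its sign. Where 1 library stands for week 70, the spread comes from the other group alone and the lone library is assumed to vary like it, here and in the values below. Replicate 2 is the library with Y-linked transcripts, whose part in the difference was not tested.

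Ngfr had 63 and 93 counts at week 70, or 4.15 and 6.41 CPM, overlapping the fetal KO libraries at 5.39 to 8.66 CPM. The log2 fold change was -0.46 (SE 0.28, edgeR adjusted p = 0.14). It passed the threshold with upper-quartile scaling (-0.71, adjusted p = 0.032) and with the length and GC correction (-1.40, adjusted p = 0.00064). It was -0.80 without week 70 replicate 2 and -0.17 without replicate 1, each with 1 library left for week 70, and every fit run gave a value below 0.

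The receptor ratio also separated the ages. Ntrk2 to Ntrk3 per kilobase was 13.6 and 11.3 at week 70, against 0.581 to 0.731 in day 15 KO. The difference of mean log2 ratios was 4.26 (two-sided exact permutation p = 0.2, the smallest that 2 against 3 allows). The ligand ratio, Bdnf to Ntf3, was 6.66 and 2.24 at week 70 against 0.864 to 1.18. Its difference of 2.00 had the same smallest exact permutation p of 0.2 (0.24 adjusted over the 6 ratio tests, as for the receptor ratio), and it ranged from 1.22 to 2.79 when single libraries were left out.

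Set against WT at day 15, the week 70 KO brains had higher Bdnf (10.5-fold), Ntrk2 (4.74-fold), Ntf3 (3.44-fold) and Sort1 (2.83-fold), and lower Ngfr (4.7-fold) and Ntrk3 (1.87-fold, or above WT with the correction on the longest transcript). This comparison shares its libraries with both others, and genotype and age differ together in it. Of 19465 genes tested, 36.7% were called higher and 41.9% lower. Groups did not overlap for 86.4% of genes and for all 6 members. The median log2 fold change was 1.64 over the members and -0.16 over all genes, or -0.29 with upper-quartile scaling.

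In this comparison the log2 fold change of Bdnf was 3.39 (SE 0.15, edgeR adjusted p = 1.0e-06). Those of Ntrk2 and Sort1 were 2.25 (SE 0.10) and 1.50 (SE 0.074). Both genes had thus been lower in KO than in WT at day 15 and were higher than the same WT libraries at week 70. Ngfr was lower, with a log2 fold change of -2.23 (SE 0.31, adjusted p = 0.00041), or -2.04 without WT replicate 1. Ntf3 gave 1.78 (SE 0.54, adjusted p = 0.017), or 0.60 with replicate 1 as the only week 70 library (adjusted p = 0.25) and 1.78 with an adjusted p of 0.0504 without WT replicate 2. Ntrk3 gave -0.90 (SE 0.12, adjusted p = 0.00027), and 0.24 with the correction on the longest transcript (adjusted p = 0.044).

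Levels can be ranked between genes only per length, here as normalised CPM per kilobase of the summed exons. In WT at day 15 the order was Sort1 at 28.6 ± 0.628 (SD, n = 3), Ntrk2 at 9.67 ± 1.05, Ngfr at 7.12 ± 2.06, Ntrk3 at 6.94 ± 0.383, Bdnf at 0.506 ± 0.0340 and Ntf3 at 0.477 ± 0.0747. Ngfr and Ntrk3 did not differ beyond their spread, nor did Bdnf and Ntf3. On this scale Sort1 was thus the most abundant member, and both ligands were the least abundant. The order depends on the length taken. The median transcript, of 6796 bases for Sort1, 2884 for Ntrk2 and 990.5 for Ntrk3, was not used as a divisor.

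In day 15 KO the order became Sort1 at 14.7 ± 0.446 (SD, n = 3), Ntrk3 at 6.21 ± 0.321, Ntrk2 at 4.02 ± 0.327, Ngfr at 1.97 ± 0.489, Ntf3 at 0.929 ± 0.188 and Bdnf at 0.884 ± 0.0480, the last pair within their spread. At week 70 it was Sort1 at 81.8 ± 6.59 (SD, n = 2), Ntrk2 at 46.3 ± 2.76, Bdnf at 5.37 ± 0.706, Ntrk3 at 3.76 ± 0.705, Ntf3 at 1.67 ± 1.33 and Ngfr at 1.53 ± 0.463. Ntf3 and Ngfr did not differ beyond their spread there. Dividing by the longest transcript instead put Ntrk2 above Sort1 at week 70, at 102 against 90.6, and Ntrk3 above Ngfr in WT, at 10.6 against 7.12. It also put Bdnf above Ntf3 in day 15 KO, at 1.29 against 1.07.

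The 6 genes did not share one pattern over the 8 libraries. Likeness was measured as the root mean square difference of log2 CPM after centring each gene, over the 8 libraries, among 12795 genes. Ntrk2 and Sort1 were the most alike members at 0.43, and Bdnf and Ngfr the least alike at 2.17. The 3 genes most like Ntrk2 were Olfm1 at 0.063, Kcna6 at 0.095 and Mast3 at 0.11. Those most like Sort1 were Pacsin2 at 0.065, Cog7 at 0.078 and Mef2d at 0.083. Those most like Ntrk3 were Tro at 0.063, Rbbp6 at 0.066 and Mettl16 at 0.069. For Bdnf they were Pvt1 at 0.10, Dbpht2 at 0.12 and Rwdd2a at 0.14. Ngfr had no near match: its closest were Mmp14, a membrane metalloproteinase, at 0.23, the laminin chain gene Lamb1 at 0.24 and Igf2r at 0.24. For Ntf3, whose few counts make any match loose, they were mt-Te at 0.23, mt-Tl1 at 0.29 and Smim17 at 0.31.

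Around these 6 genes, 54 other genes of the pathway were followed in 6 lists, and most were lower in KO at day 15. Of the 51 tested, 39 were called lower, 5 higher and 7 not, and their median was -0.76 on the log2 scale. Among all 19147 genes tested, 32.5% were called lower and 30.1% higher, with a median of 0.03. With the length and GC correction the counts were 26 lower, 6 higher and 19 not, with a median of -0.33, while 4782 of all 19050 genes in that fit were called lower and 4952 higher. These shares over all genes are the background of each count below, and with age they were 37.6% higher and 44.4% lower. The lists were drawn up with results of these data known, so their direction is a description.

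All 4 relatives of sortilin were called lower in KO at day 15 and higher at week 70 than at day 15 in KO, with Sorcs1 depending on the setting. Sorcs2, which like sortilin binds precursors together with p75, went from 53.3 ± 0.284 to 14.2 ± 0.539 CPM (SD, n = 3 each), a log2 fold change of -1.87, and to 58.3 ± 5.03 CPM (n = 2) at week 70. Sorl1, the sorting receptor SORLA, changed by -1.21 and then 2.69, and Sorcs3 by -1.04 and then 1.63. With the length and GC correction the day 15 values of Sorcs2, Sorl1 and Sorcs3 were -0.95, -0.51 and -0.52, all still called lower. Sorcs1 changed by -0.41 and then 0.29, and neither call held throughout: the day 15 value was 0.00 with the length and GC correction, and the week 70 value was 0.04 with upper-quartile scaling.

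Of the 10 tested genes that cut, sort or activate precursors or inhibit these steps, 7 were lower and 1 higher at day 15. Over all genes, 32.5% were lower and 30.1% higher. The 1 gene higher at day 15 encodes an inhibitor. At week 70, 7 were higher, that inhibitor among them, and 1 lower than in day 15 KO, against 37.6% and 44.4% over all genes. Furin, a protease that cuts precursors in the secretory route, changed by -1.21 at day 15 (-0.34 corrected) and by 1.21 with age. The age value was 0.33 with the correction on the longest transcript and 0.24, no longer called, on the median transcript (adjusted p = 0.063). Cpe, carboxypeptidase E, which also takes part in sorting BDNF into secretory granules, changed by -1.20 and 4.22. Plat, tissue plasminogen activator, which makes the plasmin that cuts secreted proBDNF, changed by -1.14 and 1.04. Pcsk1, a convertase of dense-core granules, was not called at day 15 (-0.02, and 0.15 with upper-quartile scaling), apart from -0.74 with the correction on the median transcript, and rose by 4.12 with age.

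Among 18 adaptors, effectors and regulators of Trk signalling, 16 were lower and 1 higher at day 15, with a median of -0.71. The shares of all genes were 32.5% and 30.1%. Those lower included ubiquitin ligases that limit the signal, so the count is not one of signal relay alone. With the length and GC correction 10 were lower, 1 higher and 7 not called, with a median of -0.28. With age 9 rose, 4 fell and 5 were not called, but the balance depended on the setting: 5 were higher and 6 lower with upper-quartile scaling, and 7 higher and 7 lower with the correction, against 37.6% higher and 44.4% lower over all genes on the main scale. Shc3, the neuronal Shc adaptor, changed by -0.89 (-0.37 corrected) and then 2.95. Frs2, a docking protein of activated Trk, changed by -0.24 and 0.32, but both calls ended with upper-quartile scaling (-0.06 and 0.07), and the day 15 value was 0.00 with the correction on the longest transcript and -0.51 on the median transcript. Shc2 gave -0.50 at day 15, but -0.13, not called, with the correction on the longest transcript and 0.20 on the median transcript. Shc1 gave -0.70 (adjusted p = 0.0077), -0.43 without WT replicate 1, and -0.30 corrected, no longer called (adjusted p = 0.17).

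Of 11 partners of p75, 7 were lower, 1 higher and 3 not called at day 15, against 32.5% lower and 30.1% higher over all genes. With age 7 rose and 2 fell, against 37.6% and 44.4% over all genes. Lingo1 and Rtn4r, which form the Nogo receptor complex with p75, were lower at day 15 and rose with age: Lingo1 changed by -1.62 and then 3.62, and Rtn4r by -1.52 and then 4.01. Both were at -0.92 at day 15 with the correction. Maged1, a p75-binding protein also called NRAGE, changed by -1.12 and then 0.62, and the second was 0.21 and not called with the correction (adjusted p = 0.059). Bex3, a small p75-binding death executor, was the gene called higher at day 15, at 0.58 (edgeR adjusted p = 3.5e-05), or 0.37 corrected.

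Of 7 regulators of Bdnf transcription, 2 were higher and 5 lower in KO at day 15, with a median of -0.50, against 30.1% higher and 32.5% lower over all genes. The count depended on the correction: 2 higher, 1 lower and 4 not called on the longest transcript, with a median of -0.04, and 1 higher, 3 lower and 3 not called on the median transcript. Creb1, which binds cyclic AMP response elements, was higher at 0.35 (edgeR adjusted p = 0.0027), or 0.21 and 0.03 with the correction on the longest and the median transcript, the latter not called. It fell by 1.73 on the log2 scale with age, or by 0.80 corrected. Rest, a repressor of neuronal genes, gave -0.40 at day 15, with calls lost under upper-quartile scaling (adjusted p = 0.068) and the correction (0.03), and fell by 1.65 with age. Npas4, an activity-induced factor, gave 0.39 (adjusted p = 0.031), 0.27 without WT replicate 1 (adjusted p = 0.11) and 0.99 with the correction. At week 70 Npas4 had 538 and 96 counts, and its age change, 0.77 and not called (adjusted p = 0.16), was 1.52 with replicate 1 alone and -0.89 with replicate 2 alone, so 1 library sets its sign.

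**Figure D4:**
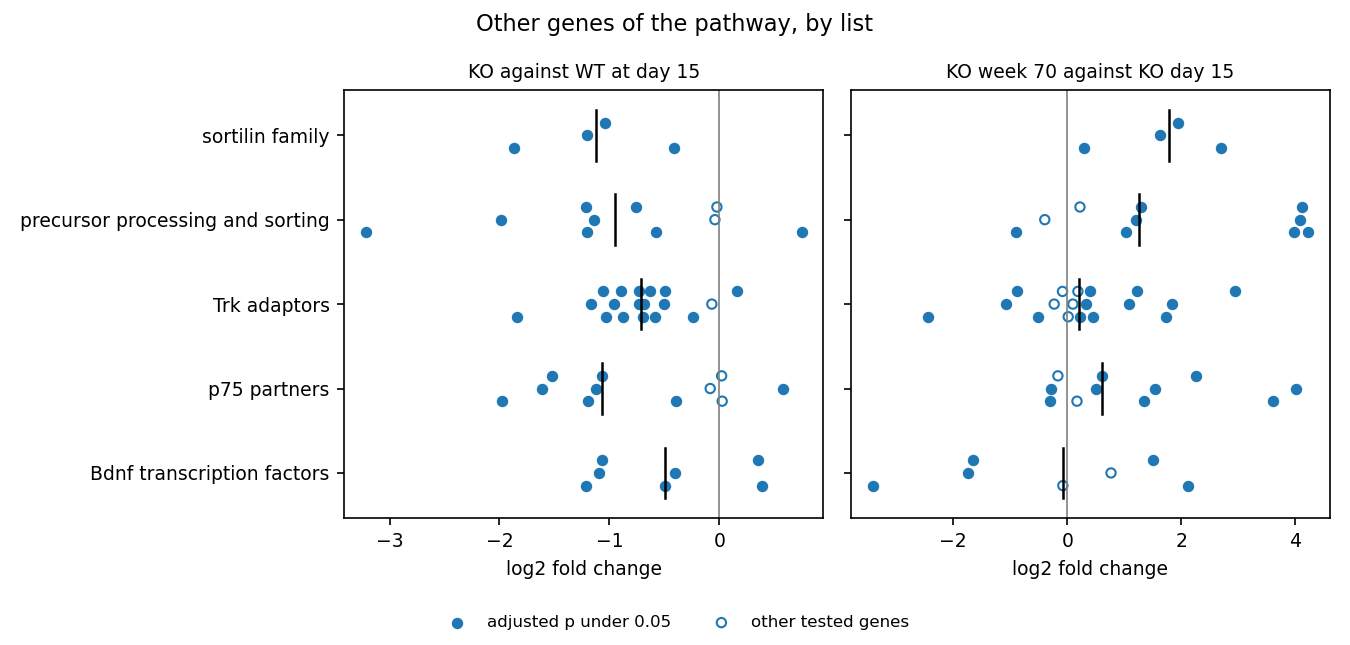
Log2 fold changes of the other pathway genes in 5 of the 6 lists, for KO against WT at day 15 and for week 70 against day 15 in KO, with filled points for called genes, open points for the others and a vertical bar at each list's median. All 4 genes of the sortilin family lie below 0 at day 15 and above 0 with age.

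With age, 30 of the 52 pathway genes tested were called higher, 10 lower and 12 not, with a median of 0.55, against 37.6% higher and 44.4% lower over all genes with a median of -0.19. Upper-quartile scaling changed that split to 25 higher and 15 lower. Against WT at day 15, the week 70 KO brains had 20 genes higher, 18 lower and 14 not called, beside shares over all genes of 36.7% higher and 41.9% lower. Furin, Plat, Sorcs1, Sorcs2 and Shc2 were not called there, at 0.04, -0.05, -0.08, 0.12 and -0.01.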

How the data were processed

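The deposited values are raw counts, 1 column for each of 8 bulk libraries and 1 row for each Ensembl gene, per the file headers. Libraries were made from poly-T purified mRNA, per the labels' protocols. FastQC, cutadapt, Trimmomatic, HISAT2, featureCounts, edgeR, GRCm38 and GRCm39 are named in the submitters' processing notes, with no role or order. Use of strand is not given in the sources used here; Gm45346 and Gm12523 overlap Bdnf and Sort1 on the other strand but had at most 3 and 5 counts.

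The test was edgeR 4.0.16 under R 4.3.3 (TMM scaling, filterByExpr, quasi-likelihood F-test), 1 fit per pair of groups over all genes, with Benjamini-Hochberg adjustment. The SE is the log2 fold change divided by the square root of F. CPM use TMM over all 8 libraries. Ratios were compared by exact permutation tests. The labels call the day 15 samples biological replicates; for week 70, p-values measure only the spread between these samples. Gene positions are from GENCODE M21 (GRCm38), which matched 33367 of 34299 genes, and promoters from RefSeq (GRCm38.p6). The length and GC correction entered a smooth trend (mgcv 1.9.3) as an offset. The alternatives comprised scaling by RLE or upper quartile, no filter or a mean of 10 counts, DESeq2 1.42.0, 1 fit of all libraries, a replicate block, removal of haemoglobin and mitochondrial genes, and leaving out each library. The procedure was run on simulated data with 200 genes changed. Far more genes were called in the real data, so that run could not check the scaling. The members and lists were chosen with earlier results of these data known. The text names all 6 members, the 3 genes nearest to each, and the first 4 genes of each pathway list, except some that are not reported here.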

Additional observations from a re-analysis of the deposited data

How the results depend on the processing

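The calls for Ntrk2 and Sort1 held under every alternative run, in all 3 comparisons, and Ngfr at day 15 ranged from -2.03 to -1.00 with its call kept. Values below are log2 fold changes from edgeR unless named otherwise. At day 15, the replicate block with the length and GC correction left 3 of 6 members called (5 without), with Bdnf at 0.48 (adjusted p = 0.071) and Ntf3 at 0.71 (0.10). Ntf3 at day 15 also lost its call with DESeq2 (1.00, adjusted p = 0.050), with all libraries in 1 fit (0.95) and with the correction (0.71), and ranged from 0.87 to 1.15 when libraries were left out. Ntrk3 at day 15 was 0.052 with upper-quartile scaling, -0.21 without a filter and -0.15 with the correction, and -0.183 to -0.087 when libraries were left out.

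With age, Ntf3 gained a call at 1.22 with the correction on the median transcript (adjusted p = 0.038), which left all 6 members called, and was -0.44 to 1.40 when libraries were left out. Ntrk3 was 0.39 with the correction and 0.38 with the replicate block added. Ngfr was -0.71 with upper-quartile scaling, -1.40 with the correction, -1.50 with the replicate block and correction, -1.36 on the median transcript, and -0.80 to -0.17 when libraries were left out. The Bdnf to Ntf3 ratio ranged from 1.22 to 2.79. Against WT day 15, Ntf3 was 1.69 with the replicate block (adjusted p = 0.060) and 0.60 to 2.43 when libraries were left out, Ntrk3 was 0.24 with the correction and 0.25 with the replicate block added, and the ligand ratio ranged from 1.07 to 2.64. The cause of these shifts was not tested.

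Libraries of the same replicate number were not more alike: WT and KO libraries of the same number had deviations correlated at -0.14, -0.17 and -0.15. Those of different numbers were correlated at 0.06 to 0.09. With so few libraries, centred within each group, this check cannot exclude a pairing by number. The replicate block gave 11184 called genes at day 15 (11993 without), 14876 with age (16390) and 13244 against WT (15300), and by itself it changed no member's call but that of Ntf3 against WT. Limits of depth fall on Ntf3, with 15 to 65 counts per library, and Bdnf, with 59 to 96 in fetal brain. Ntrk3 depends on which of its transcripts is taken as the gene's length.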
